A study of Mus musculus with 6 samples.

Results

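The genes described here are 9 C-type lectin receptors of myeloid cells: Clec7a, Clec4d, Clec4e, Clec4n, Clec4a2, Clec5a, Clec10a, Clec12a and Mrc1. They were taken by name as a family, without a cutoff on a measured value but with earlier results of these data known. All 9 were found among the 23282 genes of the count files through their NCBI gene numbers. Their RNA was followed through 9 libraries from 6 samples of mouse blood-forming cells of mixed 129/Sv and C57BL/6 background. LSK cells, the marrow fraction that lacks lineage markers and carries Sca1 and c-Kit, came from 2-month-old littermates that carried the MxCre transgene, a Cre recombinase driven by the interferon-inducible Mx promoter, and were given polyIC to switch it on. One LSK library was labelled wild type and 1 was labelled Mll4f/f with Cre, called labelled Mll4 deleted below. The other cells were whole bone marrow transformed in culture by MLL-AF9, a leukaemia fusion oncogene delivered by retrovirus, and grown for 14 days. In the first pair of groups, Mll4f/f MxCre marrow carrying MLL-AF9 received a second retrovirus with Cre and Tomato (2 libraries, called Cre-deleted below) or an empty Tomato vector (2 libraries, called intact), and cells positive for GFP and Tomato were collected after 5 days. In the second pair, MLL4-/- marrow was infected together with MLL-AF9-neo and either FOXO3-IRES-GFP (2 libraries) or an empty vector (1 library, called null empty-vector), selected in G418 and sorted for GFP. Mll4, the gene Kmt2d, encodes a methyltransferase of histone H3 lysine 4, and FOXO3 is a transcription factor. By the labels, deletion went together with Cre in the first pair of groups and both groups of the second pair lack Mll4, and the group names used here are those labels.

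C-type lectin receptors sit on the surface of macrophages, dendritic cells and neutrophils and bind sugars and lipids of fungi, bacteria and dying cells. One set of them activates the cell: Clec7a (Dectin 1, the receptor for fungal beta-glucan) signals through a motif in its own tail, whereas Clec4n (Dectin 2), Clec4d and Clec4e (Mincle, a receptor for mycobacterial glycolipid) use the adaptor Fcer1g, and Clec5a uses the adaptor Tyrobp. The kinase Syk then carries the signal to Card9 and to NF-kB. Clec4a2 and Clec12a carry inhibitory tail motifs that recruit phosphatases such as Ptpn6, and Mrc1 (the mannose receptor) and Clec10a (a galactose-type lectin) mainly take up their ligands.

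The libraries held 25895041 to 61950773 counts, and the 10 most abundant genes took 4.59% to 20.1% of them. Levels are given as CPM, counts scaled to the library's total, and the fold changes were fitted with TMM scaling factors, so that ratios of CPM differ from them. Scaling by totals in place of TMM moves the median over all genes, on the log2 scale, from -0.03 to 0.24 for Mll4 loss, and the members' values with it. In LSK cells Kmt2d was at 1.88 CPM in the wild type library and at 13.9 CPM in the other, higher where the label says deleted. It was at 79.5 and 61.7 CPM in the intact, 95.6 and 73.7 CPM in the Cre-deleted, 102 and 115 CPM in the FOXO3 and 116 CPM in the null empty-vector libraries. Between Cre-deleted and intact cells it was not called (log2 fold change -0.01 ± 0.16 SE, adjusted p = 0.972 in edgeR's quasi-likelihood test). These totals bear out the deletion in no sample, and a total over the gene does not check a deletion of part of it, so every direction set by Mll4 loss below rests on the labels. Foxo3 stood at 1292 and 1309 CPM with the FOXO3 virus and at 27.3 CPM with the empty vector. Xist, an RNA of female cells, differed between libraries of a group, at 771 and 2.21 CPM in the Cre-deleted and 1.08 and 687 CPM in the intact libraries. Ddx3y, a gene of the Y chromosome, went the other way, at 0.161 and 41.3 CPM in the Cre-deleted and 52.0 and 0.121 CPM in the intact libraries. The FOXO3 libraries stood apart from the other pairs in how closely they agreed, with a chi-square over genes of 1.97 per degree of freedom against 191 within the Cre-deleted and 146 within the intact pair. No label says that libraries of a sample are separate cultures. By Xist and Ddx3y, the Cre-deleted pair and the intact pair each set a female beside a male library. The libraries of each of these pairs therefore came from different animals. P-values measure the spread between these libraries, which may be technical in the FOXO3 pair.

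Defining markers of the labelled cell types were present. In LSK cells Kit stood at 102 CPM with the deleted label and at 46.8 CPM with the wild type label. Ly6a (Sca1) stood in the same order at 28.2 and 80.2 CPM and Flt3 at 212 and 221 CPM. Kit and Ly6a do not set LSK cells apart from MLL-AF9 cells. In the MLL-AF9 libraries Kit ranged from 25.3 to 186 CPM and Ly6a from 12.4 to 258 CPM, whereas Flt3 was at 0.757 CPM or less. Of 14 macrophage and monocyte markers 7 were at 0 in each LSK library, Csf1r, Adgre1 and Cd14 among them. In the MLL-AF9 libraries these 14 markers summed to 22997 and 33157 CPM in the intact, 6400 and 12761 CPM in the Cre-deleted, 1885 CPM in the null empty-vector and 2537 and 2486 CPM in the FOXO3 libraries. Over the same libraries the 9 receptor genes summed to 4021 and 4966, 2169 and 3668, 543, and 630 and 623 CPM. Both sums were highest in the intact and lowest in the second-pair libraries. In the second pair Clec12a alone made most of the receptor sum, at 284 CPM with the empty vector and 494 and 487 CPM with FOXO3. Lyz2 alone made most of the marker sum in intact cells (19157 and 28578 CPM, against 3416 and 8534 CPM in Cre-deleted cells), and the other 13 markers, at 3840 and 4579 against 2984 and 4227 CPM, overlapped between these groups. The 12 neutrophil markers matched summed to 7592 CPM in the second intact library and to between 13069 and 23979 CPM in the other 6 MLL-AF9 libraries. B cell markers summed to 29.7 CPM or less in MLL-AF9 libraries, with Pax5 and Ebf1 at 0, and Cd3e of T cells was at 0 throughout. In bulk RNA, fewer cells of a type and less RNA per cell cannot be told apart, and the part of the macrophage markers in the receptor results below was not tested.

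**Figure D1:**
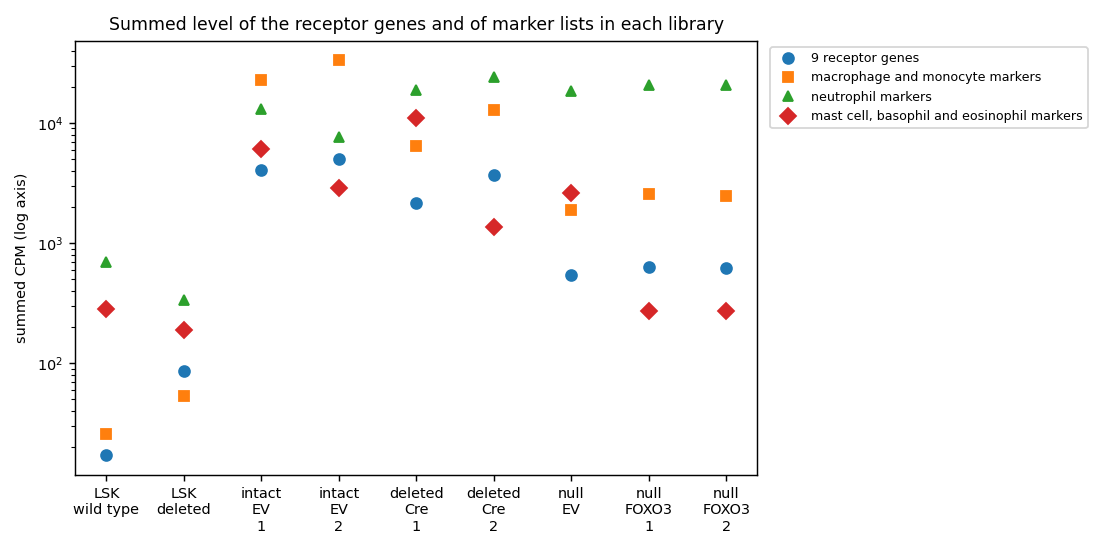
Summed CPM (log axis) of the 9 receptor genes and of 3 marker lists in each of the 9 libraries, 1 symbol per list and library. The receptor sum lies between 543 and 4966 CPM in MLL-AF9 libraries and at 17.2 and 85.5 CPM in LSK libraries. Clec12a makes most of it in the null empty-vector and FOXO3 libraries.

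In LSK cells most of the family was not detected. Clec4d, Clec4n, Clec5a, Clec12a and Mrc1 had 0 counts in both LSK libraries, which allows up to 0.116 CPM in the library labelled Mll4 deleted and 0.113 CPM in the wild type. Clec7a and Clec4e had 1 count each in the library labelled deleted and 0 in the wild type. The exceptions were Clec4a2, the inhibitory receptor, and Clec10a. Clec4a2 stood at 8.57 CPM (222 counts) in the library labelled deleted and 5.90 CPM (157 counts) in the wild type library. Clec10a stood at 76.9 CPM (1991 counts) in the library labelled deleted and 11.3 CPM (300 counts) in the wild type library.

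With 1 library per genotype there is no test between the LSK libraries, and the intervals cover counting error only. Ddx3y stood at 14.4 CPM in the library labelled deleted and 0.827 CPM in the wild type library, and Xist at 2.05 and 3.65 CPM. Whether these libraries differ in sex was not tested. Clec10a was 6.82-fold higher in the library labelled Mll4 deleted, a log2 ratio of 2.77 with a 95% Clopper-Pearson interval of 2.59 to 2.95. Clec4a2 was 1.45-fold higher, a log2 ratio of 0.54 with an interval of 0.24 to 0.84. Over the 10174 genes that averaged 1 CPM or more, 63.0% were at least 2-fold apart and 28.1% at least 2-fold higher in the library labelled deleted, beside 1 of the 2 receptor genes at that level. The libraries were amplified by PCR from about 50 picked cells, and reads of such libraries are not independent molecules. Mgl2, the closest copy of Clec10a, went the other way, at 33.4 CPM in the library labelled deleted and 68.0 CPM in the wild type library. The sources used here do not give how reads of such near-identical copies were counted, so the values of Clec10a, and of Clec4a2 with its copies Clec4a1, Clec4a3, Clec4a4 and Clec4b1, are uncertain.

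**Figure D2:**
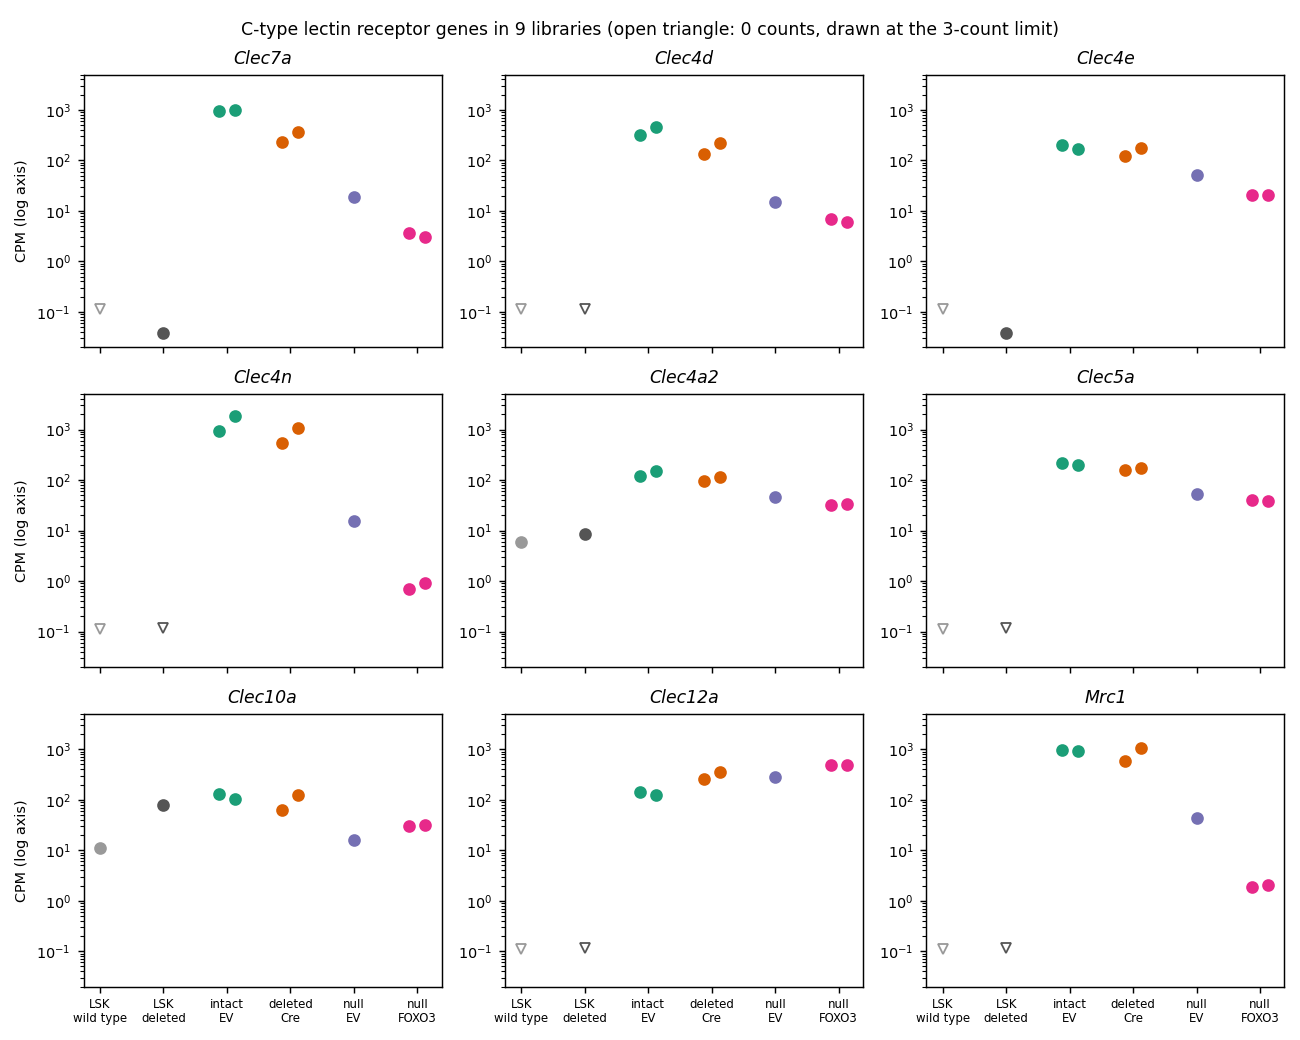
Level of each receptor gene in CPM (log axis) by group, 1 point per library; open triangles are libraries with 0 counts, drawn at the limit of 3 counts. In the 7 MLL-AF9 libraries all 9 genes were detected, Mrc1 from 1.89 to 1043 CPM and Clec12a from 126 to 494 CPM.

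Intact MLL-AF9 cells carried RNA of all 9 receptors. Against the wild type LSK library, with its 0 counts set to the limit of 3 counts in that library, the mean of the 2 intact libraries was at least 12483-fold higher for Clec4n, 8723-fold for Clec7a, 8329-fold for Mrc1 and 3419-fold for Clec4d. The bound was at least 1873-fold for Clec5a, 1623-fold for Clec4e and 1179-fold for Clec12a. Clec4a2 was 22.8-fold and Clec10a 10.2-fold higher, the lowest ratios of the family, with log2 ratios of 4.51 and 3.35. With TMM factors in place of totals these were 3.89 and 2.72. These ratios have no test, and because the LSK and MLL-AF9 libraries were made by different protocols, protocol and cell type cannot be told apart.

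Levels of different genes were set side by side per kilobase of annotated exon, an approximate scale because the annotation used for counting is not given. In intact cells Clec4n led with 1134 CPM per kilobase, ahead of Clec7a (430), Clec4d (292) and Mrc1 (175), and the other 5 lay between 46.0 and 72.7. In Cre-deleted cells Clec4n led again with 652 CPM per kilobase, and Clec12a, at 122, lay close behind Clec7a (130). In null empty-vector cells the inhibitory receptor Clec12a led with 114 CPM per kilobase and no other member passed 20.5. With FOXO3 Clec12a led with 196 CPM per kilobase, and Mrc1 was last at 0.368.

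Of the 9 genes, 7 lie on chromosome 6. In RefSeq's gene order Clec12a is followed by Clec12b, Clec1b, Clec9a, Clec1a and Clec7a, and Clec4a2 by Clec4b2, Clec4n, Clec4d and Clec4e. Clec5a lies elsewhere on chromosome 6, Clec10a on chromosome 11 and Mrc1 on chromosome 2. Promoter sequences were available for 7 members, in the RefSeq promoter table of build GRCm38.p6, a build other than the mm9 of the authors' alignment. They are shown because 8 of the 9 genes were lower together in one of the comparisons below. In the 250 bases before the start, searched on both strands, 6 of the 7 held the core GAGGAA bound by PU.1, the master factor of myeloid genes, against 23.1% of 27025 genes. The C/EBP element TTGCNNAA was found in Clec4e and Clec12a, against 9.55% of genes. The FOXO element TGTTTAC (3.09% of genes) and the AP-1 element TGACTCA (4.43% of genes) were found in none of the 7. Clec12a, the member not called in that comparison, held 2 PU.1 cores and a C/EBP element, and Clec4a2, which was lower, held no searched motif. Any link between the matches and the comparisons was not tested. No searched motif is part of another, and a match is a run of letters, not a shown binding site. The 30 bases around the match nearest to the start follow for each of the 6 genes, 5′ to 3′ on the gene's strand, with the core or its reverse complement in capitals.
Clec7a, chr6:129472858-129472887, minus strand: aaacaggatctaGAGGAAaaaagggaaatt
Clec4d, chr6:123261857-123261886, plus strand: caccaacttcTTCCTCtgttctaaagcaaa
Clec4e, chr6:123289910-123289939, minus strand: ccttgtgcaagaGAGGAAattctgacttaa
Clec5a, chr6:40585843-40585872, minus strand: gtagaagttcccTTCCTCtttttgccccgc
Clec12a, chr6:129350185-129350214, plus strand: ggaagaaaagtgTTCCTCtttcaatcttat
Mrc1, chr2:14229367-14229396, plus strand: aaaagggacagcTTCCTCtgtcctcctttt

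The core lies 91 bases before the start in Clec7a, 51 in Clec4e, 50 in Clec5a, 42 in Clec12a, 30 in Mrc1 and 235 in Clec4d. For Clec7a, the member with the lowest fitted change on Mll4 loss, and for Clec4e, the one with both a PU.1 core and a C/EBP element in a window free of other annotated exons, the 150 bases before the start are given in full, with matches to any of the 4 motifs in capitals.
Clec7a, chr6:129472780-129472929, minus strand: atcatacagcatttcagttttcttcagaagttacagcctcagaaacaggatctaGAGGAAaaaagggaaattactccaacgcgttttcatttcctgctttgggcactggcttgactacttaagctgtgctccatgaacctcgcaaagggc
Clec4e, chr6:123289872-123290021, minus strand: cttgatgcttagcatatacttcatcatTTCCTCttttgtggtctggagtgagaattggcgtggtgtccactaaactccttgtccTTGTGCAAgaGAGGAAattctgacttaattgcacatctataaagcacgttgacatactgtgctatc

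The first tested question was how the receptors differed between Cre-deleted and intact MLL-AF9 cells. Of the activating receptors Clec7a, Clec4d and Clec5a fell, and Clec4n and Clec4e were not called. Of the inhibitory receptors Clec12a rose and Clec4a2 was not called. All 9 genes passed the expression filter, 4 were called at an adjusted p of 0.05 (3 lower, 1 higher), and among all 14997 genes tested 14.9% were called, 6.94% lower and 7.97% higher. The median log2 fold change of the 9 was -0.62, beside -0.03 over all genes. The groups of libraries did not overlap in 5 of the 9 (4 lower, 1 higher), and in 59.0% of all genes (15.6% lower, 43.4% higher).

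Clec7a (NCBI gene number 56644) stood at 966 and 1002 CPM in the intact and at 233 and 363 CPM in the Cre-deleted libraries. The higher Cre-deleted library lay well below both intact ones. The gene fell 4.02-fold, a log2 fold change of -2.01 ± 0.24 (SE) with an adjusted p of 0.0112 in edgeR's quasi-likelihood test over all genes. The call held in 17 of 18 alternatives and missed the threshold when only the 4 compared libraries were fitted (adjusted p = 0.0551).

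The Fcer1g-coupled receptors had smaller differences. Clec4d (17474) stood at 322 and 449 CPM in the intact and at 132 and 225 CPM in the Cre-deleted libraries, without overlap. It fell 2.65-fold (log2 fold change -1.41 ± 0.32, adjusted p = 0.0430 in edgeR), a call lost in 9 of 18 alternatives, such as without the second intact library (adjusted p = 0.143), without the first (0.0706), without the first Cre-deleted library (0.0763) or without either FOXO3 library (0.105 and 0.106). Clec4n (56620), the most abundant member, stood at 956 and 1860 CPM in the intact and at 533 and 1087 CPM in the Cre-deleted libraries. Its libraries differed about as much within a group as between the groups, which overlapped, and its log2 fold change of -1.10 ± 0.47 was not called by edgeR (adjusted p = 0.165). It was -0.44 without the second intact, -1.56 without the first intact, -0.60 without the first Cre-deleted and -1.71 without the second Cre-deleted library, and in none of these did it pass (adjusted p = 0.0802 to 0.581). Clec4e (56619) stood at 199 and 167 CPM in the intact and at 124 and 176 CPM in the Cre-deleted libraries. The groups overlapped, and the log2 fold change of -0.56 ± 0.18 was not called by edgeR (adjusted p = 0.0880). It passed without the second Cre-deleted library (-0.84, adjusted p = 0.0139).

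Clec5a (23845), the receptor coupled to Tyrobp, stood at 222 and 200 CPM in the intact and at 158 and 176 CPM in the Cre-deleted libraries. The groups were narrow and did not overlap. Clec5a fell 1.53-fold (log2 fold change -0.62 ± 0.10, adjusted p = 0.0209 in edgeR). The call was lost in 8 of 18 alternatives. Among them were the fits without either intact library (log2 fold change -0.62) and without either FOXO3 library (-0.55). It was also lost with only the 4 compared libraries (adjusted p = 0.139 in edgeR) and with scaling by library totals (0.0843, log2 fold change -0.34).

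The inhibitory receptors differed in sign. Clec12a (232413) stood at 140 and 126 CPM in the intact and at 252 and 355 CPM in the Cre-deleted libraries. Both Cre-deleted libraries lay above both intact ones, opposite to Clec7a, from which 4 genes separate it. Clec12a rose 1.89-fold (log2 fold change 0.92 ± 0.18, adjusted p = 0.0294 in edgeR). The call was lost in 7 of 18 alternatives. Among them were the fits without either intact library (log2 fold change 0.91 and 0.92) and without either FOXO3 library (0.99). It was also lost with only the 4 compared libraries (adjusted p = 0.0975 in edgeR). The log2 fold change stayed between 0.65 and 1.22 in all 18 alternatives. Clec4a2 (26888) stood at 120 and 149 CPM in the intact and at 95.5 and 117 CPM in the Cre-deleted libraries. The groups lay side by side without overlap, and the log2 fold change of -0.63 ± 0.19 was not called by edgeR (adjusted p = 0.0752).

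The uptake receptors overlapped between the groups. Mrc1 (17533) stood at 968 and 910 CPM in the intact and at 579 and 1043 CPM in the Cre-deleted libraries, and the second Cre-deleted library was the highest of the 4. Its log2 fold change of -0.49 ± 0.28 was not called by edgeR (adjusted p = 0.270). Clec10a (17312) stood at 128 and 103 CPM in the intact and at 62.5 and 126 CPM in the Cre-deleted libraries, with a log2 fold change of -0.56 ± 0.32 (adjusted p = 0.274). Without the second Cre-deleted library both passed the threshold, Mrc1 at -0.98 (adjusted p = 0.0158 in edgeR) and Clec10a at -1.16 (0.0130), whereas without the first the values were -0.05 and -0.06. With scaling by library totals, the log2 fold changes were -0.21 for Mrc1, -0.29 for Clec10a, -0.29 for Clec4e and -0.34 for Clec4a2, beside the median of 0.24 over all genes, and none of these passed.

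That library was higher than the first Cre-deleted one in all 9 receptor genes, by 1.11-fold for Clec5a to 2.04-fold for Clec4n, while 48.1% of all tested genes were higher in it. The summed macrophage markers were also higher in it (12761 against 6400 CPM, and 4227 against 2984 CPM without Lyz2), and the 8 mast cell, basophil and eosinophil markers were lower (1370 against 10992 CPM). Between the groups, 1 of the 14 macrophage and monocyte markers fell, the lysozyme gene Lyz2 (-2.29 ± 0.48), and 13 were not called. Of the 12 neutrophil markers tested, 4 rose (Prtn3, Elane, Mpo and Camp), 1 fell (Mmp9) and 7 were not called. In the intact pair, 4 of the 9 receptor genes were higher in the second library, with ratios of 0.801 to 1.94. The part of these library differences in the results above was not tested.

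**Figure D3:**
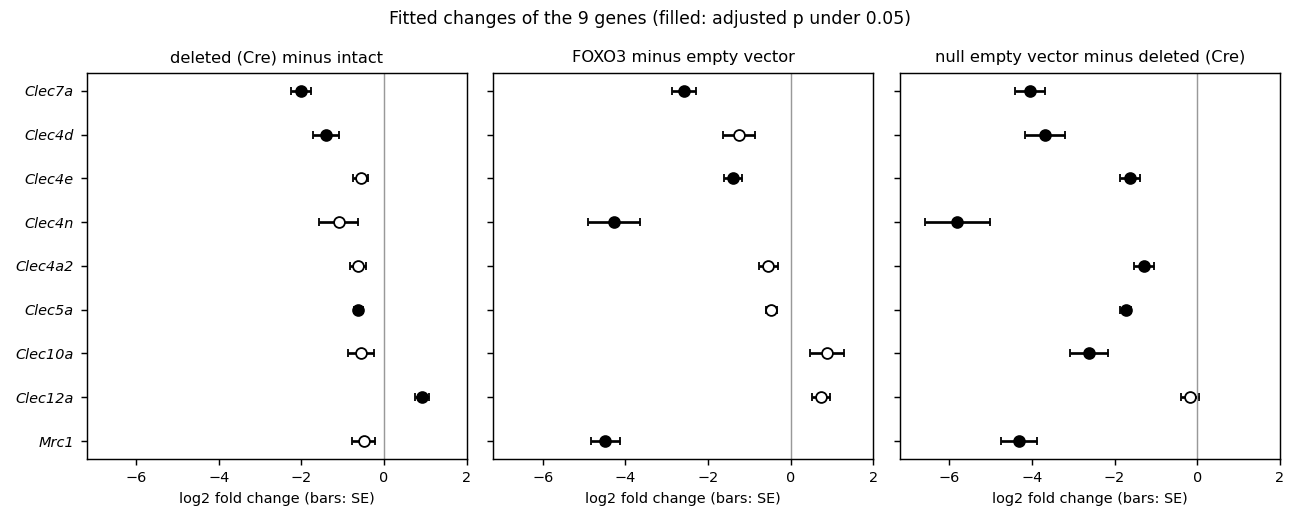
Fitted log2 fold change of each receptor gene in the 3 tested comparisons, with bars of 1 SE; filled points have an adjusted p under 0.05. Clec7a is lower and filled in all 3 panels, at -2.01, -2.58 and -4.05.

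Of the 38 genes listed as adaptors and signalling proteins of C-type lectin receptors, 5 fell, 0 rose and 33 were not called, where 6.94% of all genes fell and 7.97% rose. The median log2 fold change of the list was -0.30. The chains Fcer1g and Tyrobp fell, and the third adaptor, Hcst, was not called (-0.22 ± 0.33, adjusted p = 0.687 in edgeR). Fcer1g, the signalling chain of Clec4d, Clec4e and Clec4n, went from 483 and 477 CPM in the intact to 257 and 278 CPM in the Cre-deleted libraries. It fell by 1.13 ± 0.11 on the log2 scale (adjusted p = 0.00900 in edgeR). Tyrobp, the chain of Clec5a, went from 708 and 806 to 504 and 472 CPM. It fell by 0.92 ± 0.15 (adjusted p = 0.0186 in edgeR). In neither adaptor did the groups overlap. The NF-kB subunit Rel (-0.97 ± 0.18) and the linker Blnk (-2.42 ± 0.52) fell as well, the latter from a level of 4.28 CPM or below. The fifth gene called was Bcl10, the partner of Card9, named here after its value was seen. The kinase Syk stood at -0.60 ± 0.17 and Card9 at 0.03 ± 0.10, and neither was called (adjusted p = 0.0644 and 0.855 in edgeR).

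Among 22 genes known to be induced by these receptors, 20 could be tested, of which 8 fell and 12 were not called, with a median of -1.12. The 4 with the smallest p were the chemokine genes Ccl4 (-2.94 ± 0.23) and Ccl2 (-2.26 ± 0.37), the phosphatase gene Dusp1 (-1.28 ± 0.11) and Tnfaip3 (-1.02 ± 0.13), which encodes an NF-kB inhibitor. Many other signals induce these genes. Of 36 other C-type lectin genes 25 could be tested, 2 fell and 23 were not called. The 2 were Colec12, a scavenger collectin (-1.90 ± 0.30), and Clec1b, a receptor known from platelets (-3.80 ± 0.64). Clec1b lies between Clec12a and Clec7a and stood at 4.22 and 1.72 CPM in the intact and at 0.274 and 0.221 CPM in the Cre-deleted libraries.

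The second question was how the receptors differed with FOXO3 in MLL4-/- cells. Clec7a, Clec4n, Clec4e and Mrc1 fell with FOXO3 against the empty vector, no member rose, and 5 were not called. Of all genes tested 7.13% were called, 4.93% lower and 2.20% higher. The median log2 fold change of the 9 was -1.25, beside -0.04 over all genes. No member overlapped between the groups, beside 90.6% of all genes (45.3% in each direction), where the empty-vector group is 1 library and the FOXO3 pair agreed closely.

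Mrc1 stood at 43.3 CPM with the empty vector and at 1.89 and 2.07 CPM with FOXO3. Both FOXO3 libraries were far below. Mrc1 fell 22.5-fold (log2 fold change -4.49 ± 0.35, adjusted p = 0.00365 in edgeR), and the call held in all 17 alternatives, with a largest adjusted p of 0.0434. Clec10a, the other uptake receptor, differed in direction, at 16.2 CPM with the empty vector and 30.6 and 31.2 CPM with FOXO3. Its log2 fold change of 0.88 ± 0.41 was not called by edgeR (adjusted p = 0.279), and it passed without the first or the second Cre-deleted library (adjusted p = 0.0159 and 0.0154).

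Among the activating receptors, Clec4n stood at 15.3 CPM (802 counts) with the empty vector and at 0.701 and 0.913 CPM (26 and 41 counts) with FOXO3. It fell 19.4-fold (log2 fold change -4.28 ± 0.63, adjusted p = 0.0185 in edgeR). Clec7a stood at 19.0 CPM with the empty vector and at 3.59 and 3.01 CPM with FOXO3. It fell 5.97-fold (log2 fold change -2.58 ± 0.29, adjusted p = 0.00855 in edgeR). Clec4e, at 51.6 CPM against 20.4 and 20.2 CPM, fell 2.63-fold (log2 fold change -1.39 ± 0.21, adjusted p = 0.0205 in edgeR). The 3 calls depend on the FOXO3 pair. With the pair summed to 1 library, edgeR gave adjusted p-values of 0.0985 for Clec4n, 0.0669 for Clec7a and 0.142 for Clec4e. Without the first or second FOXO3 library they were 0.116 and 0.106 for Clec4n, 0.0671 and 0.0796 for Clec7a, and 0.146 and 0.150 for Clec4e. Clec4e also missed the threshold without either intact library (0.0595 and 0.0601), and over all alternatives the log2 fold changes ranged from -4.47 to -4.08 for Clec4n, -2.68 to -2.43 for Clec7a and -1.40 to -1.35 for Clec4e.

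Clec4d and Clec5a stood lower with FOXO3 without a call. Clec4d was at 14.7 CPM with the empty vector and at 6.93 and 5.88 CPM with FOXO3 (log2 fold change -1.25 ± 0.39, adjusted p = 0.128 in edgeR). Clec5a was at 53.1 CPM against 39.9 and 39.3 CPM (-0.47 ± 0.13, adjusted p = 0.0915), and passed without the first or second Cre-deleted library (0.0380 and 0.0336). The fitted change of Clec4d was near that of Clec4e, and its SE was larger.

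The inhibitory receptors again pointed in opposite directions. Clec12a stood at 284 CPM with the empty vector and at 494 and 487 CPM with FOXO3, the highest levels of the gene in the series. Its log2 fold change of 0.74 ± 0.22 was not called by edgeR (adjusted p = 0.119), and it passed without the first or second Cre-deleted library (0.0133 and 0.0159). Clec4a2 stood at 46.0 CPM against 32.7 and 32.8 CPM (-0.54 ± 0.23, adjusted p = 0.233 in edgeR).

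Beside these values, 4 of the 14 macrophage and monocyte markers fell with FOXO3 (Msr1, Mertk, Adgre1 and Ccr2) and 0 rose, and their summed level was 1885 CPM with the empty vector and 2537 and 2486 CPM with FOXO3. Ly6c2 alone was at 992 CPM and 2053 and 1997 CPM, and the other 13 markers summed to 893 CPM with the empty vector and 484 and 489 CPM with FOXO3. Most of the difference in that sum was Lyz2, at 530 CPM with the empty vector and 147 and 146 CPM with FOXO3. Lyz2 was not called (-1.90 ± 0.54, adjusted p = 0.105 in edgeR). Csf1r, the receptor of the macrophage growth factor, stood at 7.46 CPM with the empty vector and 1.70 and 1.92 CPM with FOXO3. The mast cell, basophil and eosinophil markers summed to 2630 CPM with the empty vector and 270 and 272 CPM with FOXO3.

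In the adaptor list 3 of 38 genes fell with FOXO3, 35 were not called and the median was 0.05. The 3 were the transcription factor gene Irf5 (-2.42 ± 0.26), the inflammasome sensor gene Nlrp3 (-1.88 ± 0.22) and the exchange factor gene Vav2 (-2.11 ± 0.36). Fcer1g, at 204 CPM against 235 and 228 CPM, had a log2 fold change of 0.13 ± 0.14 and Tyrobp one of -0.64 ± 0.17, neither called (adjusted p = 0.638 and 0.0965 in edgeR). Of 20 induced genes tested 4 fell and 16 were not called: Cxcl2 (-4.03 ± 0.53), Ccl3 (-3.38 ± 0.56), Ccl2 (-2.60 ± 0.45) and Egr1 (-3.60 ± 0.62). The median of the list was -1.62, or -1.50 with the genes at 0 in a group set to their bounds. Of 25 other C-type lectin genes, 4 rose, 1 fell and 20 were not called. Clec2i (1.83 ± 0.23), the oxidised lipid receptor Olr1 (1.47 ± 0.21) and Clec2g (1.54 ± 0.30) rose, with Cd302, named after its value was seen. Cd72, an inhibitory receptor known from B cells, fell from 5.50 CPM to 0.162 and 0.111 CPM (-5.37 ± 0.55).

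The third comparison set null empty-vector cells (1 library) against Cre-deleted cells (2 libraries). Both lack Mll4 by their labels, and they differ in the transformation, the selection and the vectors, which cannot be told apart. Sex was unbalanced as well. Ddx3y stood at 92.2 CPM in the null empty-vector library, as in a male, and at 0.161 and 41.3 CPM in the Cre-deleted libraries. This comparison shares the Cre-deleted libraries with the first and the empty-vector library with the second, so the values stand side by side and are not independent. Here 8 of the 9 receptors were lower in null empty-vector cells and only Clec12a was not called. Among all genes 21.7% were called, 12.2% lower and 9.54% higher. The groups did not overlap in 8 of 9 members, all lower, and in 81.9% of all genes (35.6% lower, 46.3% higher), and the members' median was -2.62 against -0.00.

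Clec4n, at 15.3 CPM against 533 and 1087 CPM, was 56.1-fold lower (log2 fold change -5.81 ± 0.79, adjusted p = 0.0106 in edgeR). Mrc1, at 43.3 CPM against 579 and 1043 CPM, was 19.8-fold lower (-4.31 ± 0.43, adjusted p = 0.00599). Clec7a was 16.6-fold lower (-4.05 ± 0.36, adjusted p = 0.00526 in edgeR) and Clec4d 12.8-fold (-3.68 ± 0.48, adjusted p = 0.00961). These are the activating and uptake receptors that were most abundant per kilobase in the Cre-deleted cells.

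The remaining members differed less. Clec10a was 6.16-fold lower (-2.62 ± 0.45), Clec5a 3.32-fold (-1.73 ± 0.14), Clec4e 3.08-fold (-1.62 ± 0.24) and Clec4a2 2.44-fold (-1.29 ± 0.24), with adjusted p-values of 0.00412 to 0.0214 in edgeR. Clec12a, at 284 CPM, lay between the Cre-deleted libraries at 252 and 355 CPM (-0.18 ± 0.22, adjusted p = 0.582 in edgeR). Its direction depended on 1 library: the log2 fold change was -0.46 without the first Cre-deleted library (adjusted p = 0.0347) and 0.09 without the second (0.574). Fitted on the 3 compared libraries alone, none of the 8 calls held (adjusted p = 0.0718 to 0.119 in edgeR), and no gene at all was called while 3299 had an unadjusted p under 0.05. The call of Clec4a2 was lost in 5 of 16 alternatives, among them this one and the fits without either FOXO3 library. Another of the 5 was the fit with a term for the sex of the library (log2 fold change -1.25).

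Of the 14 macrophage and monocyte markers, 11 were also lower in null empty-vector cells, with a median of -3.72, and Csf1r stood at 7.46 CPM against 156 and 403 CPM. Of the 38 adaptor and signalling genes 11 were lower and 27 not called, led by Nlrp3 (-4.47 ± 0.24), Irf5 (-2.66 ± 0.28), Tyrobp (-1.82 ± 0.19) and the Src-family kinase gene Fgr (-3.39 ± 0.48). Fcer1g was not called (-0.47 ± 0.14, adjusted p = 0.0671 in edgeR). Of the 20 induced genes 12 were lower, among them Dusp1 (-3.56 ± 0.16), Tnfaip3 (-2.27 ± 0.19), Cxcl2 (-4.97 ± 0.51) and Il1b (-5.50 ± 0.57). Of 25 other C-type lectin genes 9 were lower, 1 was higher and 15 were not called. The 1 higher was Clec11a, which encodes a secreted growth factor of the lectin family (3.30 ± 0.32, at 17.1 CPM against 2.00 and 1.23 CPM). Clec4a1 (-6.76 ± 0.87) and Clec4a3 (-5.36 ± 0.72), close relatives of Clec4a2, and Cd302 (-3.22 ± 0.55) were lower.

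**Figure D4:**
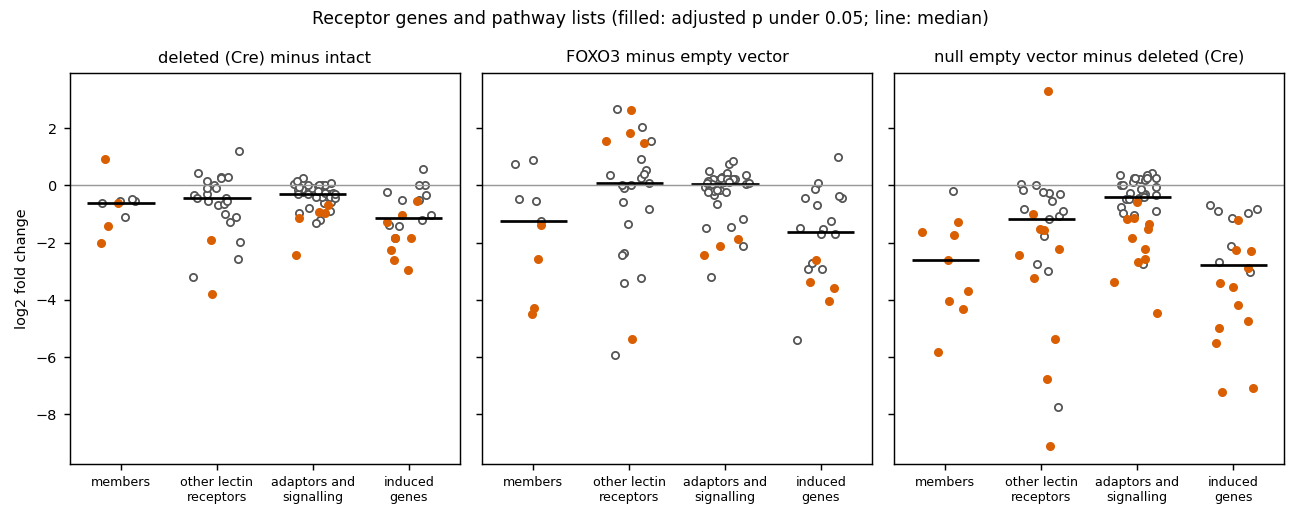
Fitted log2 fold change of the 9 receptor genes and of 3 gene lists in the 3 tested comparisons, 1 point per gene; filled points have an adjusted p under 0.05 and lines are medians. The receptor medians are -0.62, -1.25 and -2.62, and those of the adaptor list -0.30, 0.05 and -0.42.

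Set in order over the 4 MLL-AF9 groups, the mean level of Clec7a ran from intact (984 ± 25.7 CPM, SD, n = 2) through Cre-deleted (298 ± 92.2) and null empty-vector (19.0, n = 1) to FOXO3 (3.30 ± 0.409). Each step of that order was called in edgeR's fit of all 7 MLL-AF9 libraries. The steps share libraries and are not independent. With only the compared libraries the steps from intact to Cre-deleted and from Cre-deleted to null empty-vector missed the threshold. The step to FOXO3 missed it with the FOXO3 pair summed. The order was the same for Clec4d, Clec4e, Clec4n, Clec4a2, Clec5a and Mrc1. For Clec4n and Mrc1 the step from intact to Cre-deleted was not called, for Clec4d and Clec5a that from the empty vector to FOXO3, for Clec4e the first, and for Clec4a2 both. Clec12a ran otherwise, from FOXO3 (490 ± 4.43 CPM) through Cre-deleted (304 ± 72.6) and null empty-vector (284) to intact (133 ± 10.2). Cre-deleted and null empty-vector cells did not differ beyond their spread in that order, and its steps from FOXO3 to Cre-deleted and from null empty-vector to intact were not tested. Clec10a ran from intact (115 ± 18.0) and Cre-deleted (94.5 ± 45.2), which did not differ beyond their spread, through FOXO3 (30.9 ± 0.436) to null empty-vector (16.2), which were not called apart.

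Among 9297 genes that averaged 10 CPM or more, those whose centred log2(CPM + 1) profiles over the 7 MLL-AF9 libraries lay nearest to the 3 most abundant members were picked by their root mean square difference. For Clec4n they were the cathepsin gene Ctss (0.43), the scavenger receptor gene Msr1 (0.50) and the arginase gene Arg1 (0.56). For Mrc1 they were Msr1 (0.44), the osteopontin gene Spp1 (0.48) and S100a4 (0.49). For Clec7a they were the cytokine receptor gene Il7r (0.21), the transcription factor gene Atf3 (0.28) and Ccl2 (0.30). The likeness is a description over 7 libraries that share their groups, and it was the basis of the choice. Other members were not among the nearest 3 of any of these genes.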

How the data were processed

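The authors deposited a file of unnormalized whole read counts for each library, listed by NCBI gene number. The submitters' processing notes name TopHat2 2.0.11, Bowtie 0.12.8 and build mm9. Not given in the sources used here are the program that counted, its annotation and its strand setting. Gene names came from the RefSeq table of GRCm38.p6 (23185 of 23282 numbers matched, 97 did not), which served for names, gene order and promoter sequences only. Exon lengths came from GENCODE on GRCm38. The 7 MLL-AF9 libraries entered 1 fit in edgeR 4.0.16 under R 4.3.3 (TMM scaling, default expression filter, 4 group coefficients, 3 residual degrees of freedom, quasi-likelihood test). P-values were adjusted by Benjamini-Hochberg over 14997 genes with a threshold of 0.05, and SE is the log2 fold change over the root of F. LSK libraries were compared without a test. Members and lists were chosen with earlier results of these data known. Each list's 4 called genes with the smallest p are named. Replicate numbers did not pair the libraries. Alternatives used RLE, upper quartile and total scaling, other filters, robust fitting, DESeq2 1.42.0, a 1.5-fold threshold, only the libraries compared, a replicate block, a summed FOXO3 pair and each library left out. A term for the sex of the library and marker sums without Lyz2 or Ly6c2 were added after seeing the data. The procedure was run on data simulated for Mll4 loss, with the same spread of a gene in every library. The simulation did not imitate the close agreement of the FOXO3 pair, so it cannot show how that pair affects the calls.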

Additional observations from a re-analysis of the deposited data

How the results depend on the processing

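For Mll4 loss 2237 genes were called, 3540 with scaling by library totals (83.1% of them higher, against 53.5%, with a median over all genes of 0.24), 3725 with DESeq2, 312 with the FOXO3 pair summed, 341 with a 1.5-fold threshold and 302 to 3106 with 1 library left out. Fitting only the 4 compared libraries called 0, with a smallest adjusted p of 0.0514 in edgeR and 3498 genes at an unadjusted p under 0.05. For FOXO3 1069 genes were called, 2182 with DESeq2, 178 with the pair summed, 651 with a 1.5-fold threshold, 9710 with only the 3 compared libraries and 140 to 2213 with 1 library left out. For null empty-vector against Cre-deleted cells 3260 were called, 4536 with DESeq2, 1045 with the pair summed, 0 with only the compared libraries in edgeR and 1043 to 4920 with 1 library left out. The empty-vector library could not be left out, being the only one of its group. With TMM factors in place of totals the log2 ratio of intact MLL-AF9 to LSK cells was 3.89 for Clec4a2 and 2.72 for Clec10a, against 4.51 and 3.35. The 1 change of direction among the receptor genes was that of Clec12a between null empty-vector and Cre-deleted cells, 0.09 without the second Cre-deleted library against -0.46 without the first; the cause was not tested. With a replicate block, 2447 genes were called for Mll4 loss and Clec4n passed the threshold (-1.02, adjusted p = 0.0246 in edgeR); same-numbered libraries share only a number, with a correlation of 0.17 between their deviations. A term for the sex of the library gave 1910 genes called for Mll4 loss and 738 for FOXO3. Under it Clec4d lost its call for Mll4 loss (-1.42, adjusted p = 0.0878 in edgeR), and Clec7a, Clec5a and Clec12a held theirs. Each tested group holds 1 or 2 libraries, which limits the tests, and in LSK cells a count of 0 limits a level to 0.116 CPM at most.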
